A study of Capra hircus with 9 samples.

Results

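Fucosyltransferases attach the sugar fucose to the ends or the stem of glycans on proteins and lipids. The goat rumen epithelium data were read here for the FUT genes, which encode these enzymes, together with the genes for GDP-fucose, the activated sugar that the enzymes use. The members were every gene whose listed name is FUT and a number, plus GMDS, TSTA3 and FUK. This gave 9 genes of the 18383 named in at least 1 library, of which 6 are FUT genes (FUT1, FUT4, FUT6, FUT8, FUT10 and FUT11) and 3 supply GDP-fucose. FUT6 was chosen by its measured level, which was high under 1 diet alone, so its levels are given as a description and carry no test. The other members were selected on their names and not on their values. All 9 members are listed in every library.

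RNA was sequenced from the rumen epithelium of goats (Capra hircus) at 4 months of age, from animals on the diets that the labels call HC, MC and LC, with 3 libraries for each diet. The labels describe these only as different kinds of concentrate diet, and give no composition, breed or feeding time. They do not say whether the libraries of a diet came from separate animals, so the p-values measure the spread between libraries, which may be in part technical. Levels are FPKM (fragments counted per unit of transcript length and of library size), so that genes may be set beside each other. The read depth behind them is not known.

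Fucose reaches glycans from a short supply line. GMDS and then TSTA3 turn GDP-mannose into GDP-fucose, while FUK phosphorylates free fucose for reuse, and a carrier moves GDP-fucose into the Golgi where most FUT enzymes work. In humans FUT6 adds fucose to N-acetylglucosamine near the ends of glycan chains and makes Lewis-type antigens, which selectins of blood vessels and some gut bacteria bind. Human FUT3, FUT5 and FUT6 arose by duplication of an ancestral gene, whose undivided counterpart is found in cattle. FUT4 is a related enzyme best known from myeloid cells, FUT1 makes the H antigen on which the ABO enzyme works, and FUT8 adds the fucose at the stem of N-glycans. FUT10 and FUT11 are grouped with the FUT4 and FUT6 type by sequence.

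FUT6 lies at positions 14952990 to 14955773 of its sequence in the files, a span of 2784 bases that overlaps no other listed gene. The genome build of the files is not given in the sources used here. The other genes on that sequence place it on chromosome 7, by their names in a RefSeq gene table (goat assembly ARS1.2). The nearest listed genes are NDUFA11, 30025 bases to the left, and NRTN, 5933 bases to the right. That RefSeq table holds no gene named FUT6 and lists NRTN and NDUFA11 as direct neighbours, so the name FUT6 rests on the deposited files. FUT1 (chromosome 18, 53809048 to 53811797), FUT4 (chromosome 15, 14299531 to 14300781), FUT8 (chromosome 10, 73572345 to 73889993), FUT10 (chromosome 27, 27847582 to 27922982) and FUT11 (chromosome 28, 27446043 to 27449101) each lie on another chromosome. GMDS is on chromosome 23 (48251600 to 48609406), TSTA3 on chromosome 14 (11807680 to 11811955) and FUK, which the files list by its gene ID, on chromosome 18 (1036836 to 1042119). FUT10 overlaps another listed gene, LOC102169455, so its values are uncertain.

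Before the members, 1 feature of the libraries touches every comparison. The level of 10 smooth muscle genes summed to 115 to 150 FPKM in the HC libraries, to 1185 to 3666 FPKM in the MC libraries, and to 2423, 1300 and 60.4 FPKM in LC1, LC2 and LC3. The level of 21 leukocyte genes summed to 49.3 to 61.6 FPKM in HC, 31.8 to 45.5 FPKM in MC and 105 to 110 FPKM in LC. The basal keratin KRT5 was at 2696 FPKM or more in every library. Fewer cells of a type and less RNA per cell cannot be told apart in such bulk samples.

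FUT6 stood at 56.4, 30.9 and 54.5 FPKM in HC1, HC2 and HC3. It stood at 2.64, 1.92 and 1.96 FPKM in MC1, MC2 and MC3, and at 5.55, 5.47 and 4.12 FPKM in LC1, LC2 and LC3. The lowest HC library lies far above the highest library of the other diets, the MC libraries lie below the LC libraries, and no 2 diets overlap. The mean was 47.3 ± 14.2 FPKM in HC, 2.17 ± 0.403 FPKM in MC and 5.04 ± 0.801 FPKM in LC (SD, n = 3 each). The HC mean was 9.37 times the LC mean and 21.7 times the MC mean. On the log2(FPKM + 1) scale the difference was 2.96 for HC minus LC, 3.89 for HC minus MC and -0.93 for MC minus LC.

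Within HC, HC2 was lower than HC1 and HC3. Leaving out any 1 library moved the log2 difference between 2.81 and 3.23 for HC minus LC and between 3.74 and 4.16 for HC minus MC. LC3 is the library with the lowest smooth muscle sum, and FUT6 was 4.12 FPKM there. With LC3 as the only LC library the HC minus LC difference was 3.19, and with the mean of the smooth muscle genes as a covariate it was 3.11.

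**Figure D1:**
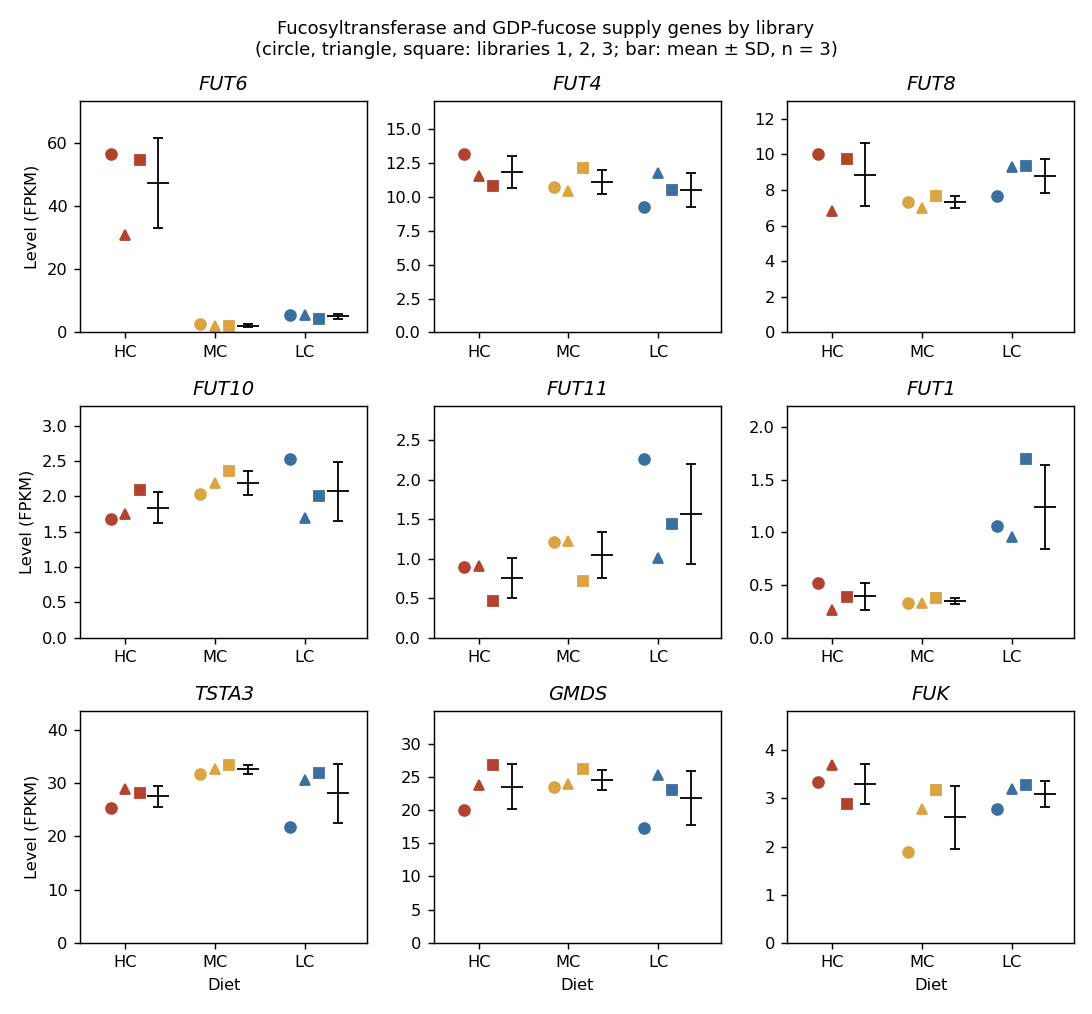
Level in FPKM (vertical axes, each from 0) of the 9 members in every library, by diet; symbols mark libraries 1, 2 and 3, and the bar is the mean ± SD (n = 3). FUT6 was 30.9 FPKM or more in the HC libraries and 5.55 FPKM or less in all others, while FUT4, FUT8, FUT10, TSTA3, GMDS and FUK varied less than 2-fold over the 9 libraries.

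FUT6 also moved through the order of all genes. Its level was above that of 90.9%, 83.9% and 89.8% of the genes listed in HC1, HC2 and HC3. In the MC libraries it was above 41.6%, 37.1% and 37.7% of the listed genes, and in the LC libraries above 54.2%, 53.8% and 47.4%. It was thus well above the middle of the list in HC and near or under it in MC and LC.

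Among the FUT genes, FUT6 held 68.2%, 59.2% and 69.9% of the summed FPKM in HC1, HC2 and HC3. Its share was 10.9%, 8.32% and 7.78% in the MC libraries and 19.6%, 18.1% and 14.1% in the LC libraries. FUT4 held the largest share in MC (45.8% ± 2.04) and in LC (36.0% ± 3.17), against 17.3% ± 4.32 in HC (SD, n = 3 each). The ratio of FUT6 to FUT4, both in FPKM, was 4.29, 2.67 and 5.05 in the HC libraries, 0.247, 0.184 and 0.162 in the MC libraries, and 0.599, 0.464 and 0.391 in the LC libraries. The sum over the 6 FUT genes was 70.9 ± 16.4 FPKM in HC, 24.2 ± 1.04 FPKM in MC and 29.2 ± 0.919 FPKM in LC. Without FUT6 it was 23.7 ± 2.47 FPKM in HC, 22.0 ± 1.07 FPKM in MC and 24.2 ± 1.22 FPKM in LC, so that the diet means of this smaller sum lay closer together than 1 SD of the HC libraries.

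**Figure D2:**
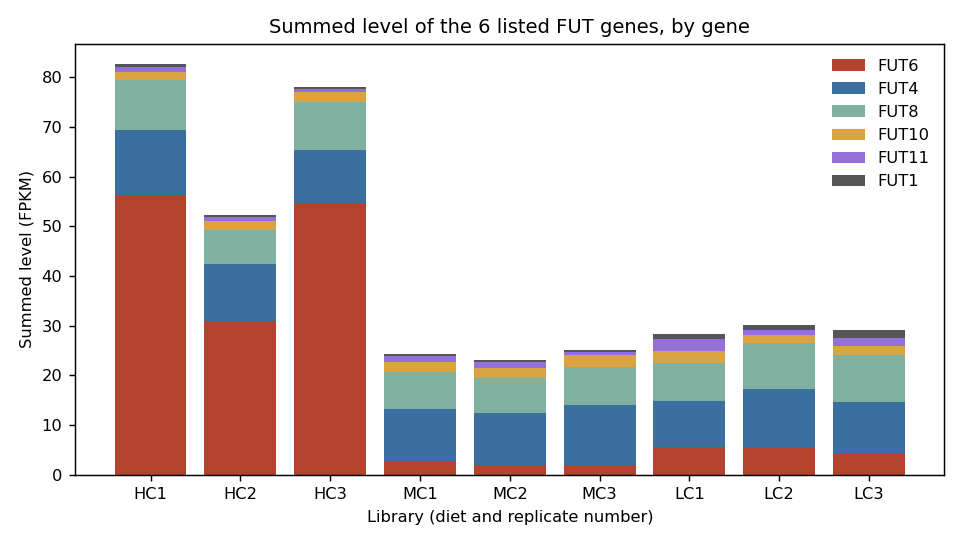
Summed level of the 6 listed FUT genes (vertical axis, FPKM, from 0) in each library, with each gene's part in its own colour. The HC columns reach 52.2 to 82.6 FPKM and the others 23.1 to 30.2 FPKM, and the FUT6 part makes up most of each HC column.

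FUT4 had 13.1, 11.6 and 10.8 FPKM in the HC libraries, 10.7, 10.5 and 12.1 FPKM in the MC libraries and 9.26, 11.8 and 10.5 FPKM in the LC libraries. All 3 diets overlapped. The HC minus LC difference was 0.16 ± 0.12 (log2, SE) with a 95% interval of -0.11 to 0.43 and an adjusted p of 0.377. It was 0.07 for MC minus LC (adjusted p = 0.692) and 0.08 for HC minus MC (adjusted p = 0.647).

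FUT8, the N-glycan stem enzyme, had 10.01, 6.82 and 9.73 FPKM in the HC libraries, 7.33, 7.01 and 7.67 FPKM in the MC libraries and 7.67, 9.26 and 9.37 FPKM in the LC libraries. The HC libraries spanned those of both other diets, and HC2 was the lowest of all 9, as it was the lowest HC library for FUT6. The adjusted p was 0.998 for HC minus LC, 0.254 for MC minus LC and 0.266 for HC minus MC. The MC libraries lay just under those of LC, with MC3 and LC1 both at 7.67 FPKM when rounded.

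FUT10 had 1.68, 1.75 and 2.09 FPKM in the HC libraries, 2.03, 2.18 and 2.36 FPKM in the MC libraries and 2.52, 1.69 and 2.0 FPKM in the LC libraries. These overlapped for every pair of diets. The lowest adjusted p of the gene was 0.388, for HC minus MC.

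FUT11 had 0.890, 0.909 and 0.464 FPKM in the HC libraries, 1.22, 1.22 and 0.714 FPKM in the MC libraries and 2.26, 1.01 and 1.45 FPKM in the LC libraries. The HC libraries lay below the LC libraries without overlap, and the LC libraries were spread widely. The HC minus LC difference was -0.53 ± 0.20 (log2, SE), with an adjusted p of 0.0720 that missed the threshold of 0.05. Without LC2 the adjusted p was 0.0391. FUT11 lies 636 bases from SEC24C, and whether reads of one were counted for the other was not tested.

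FUT1, the H antigen enzyme, was the member with the lowest mean under each diet. It had 0.522, 0.265 and 0.389 FPKM in the HC libraries, 0.333, 0.328 and 0.375 FPKM in the MC libraries and 1.06, 0.955 and 1.69 FPKM in the LC libraries. The LC libraries were above all others, so that FUT1 was highest under the diet where FUT6 was in the middle. Only 2 libraries, LC1 and LC3, reached 1 FPKM, so FUT1 was left out of the 11668 genes tested. With the filter on low values dropped, FUT1 was lower in HC than in LC (log2 difference -0.67, adjusted p = 0.00466) and lower in MC than in LC (-0.72, adjusted p = 0.00219). In that setting, which tests more than the 11668 genes, 3307 and 4179 genes in all were called for these 2 comparisons. HC and MC overlapped, with a difference of 0.05 and an adjusted p of 0.838.

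TSTA3, the second enzyme on the way from GDP-mannose to GDP-fucose, had 25.3, 28.9 and 28.2 FPKM in the HC libraries, 31.8, 32.6 and 33.4 FPKM in the MC libraries and 21.7, 30.5 and 31.9 FPKM in the LC libraries. The HC libraries lay below the MC libraries without overlap, by 0.24 ± 0.15 (log2, SE), and the adjusted p was 0.242. GMDS, the enzyme before it, had 20.0, 23.7 and 26.9 FPKM in the HC libraries, 23.4, 23.9 and 26.2 FPKM in the MC libraries and 17.4, 25.3 and 23.0 FPKM in the LC libraries. LC1 was the lowest of the 9 libraries for GMDS and for TSTA3, and its summed FPKM over all genes was also the lowest. FUK had 3.33, 3.70 and 2.88 FPKM in the HC libraries, 1.89, 2.77 and 3.17 FPKM in the MC libraries and 2.78, 3.20 and 3.28 FPKM in the LC libraries. Its diets overlapped, and the lowest adjusted p was 0.218, for HC minus MC.

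None of the 7 members tested beside FUT6 (FUT4, FUT8, FUT10, FUT11, TSTA3, GMDS and FUK) passed the limma test with Benjamini-Hochberg adjustment in any of the 3 comparisons. For HC minus LC, 0 of 7 were higher or lower, where 25.2% of the 11668 genes tested passed (7.79% higher and 17.4% lower). The unadjusted p was under 0.05 for 1 of 7, FUT11, beside 38.4% of all genes, and the libraries of 1 of 7 did not overlap, beside 40.6% of all genes. For MC minus LC, 0 of 7 passed beside 33.4% of all genes (16.2% higher and 17.1% lower), 0 had an unadjusted p under 0.05 beside 43.4%, and 1, FUT8, did not overlap beside 47.1%. For HC minus MC, 0 of 7 passed beside 25.0% (8.00% higher and 17.0% lower), 0 had an unadjusted p under 0.05 beside 39.2%, and 1, TSTA3, did not overlap beside 46.4%. The comparisons share diets and so are not independent of each other.

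The median log2 difference of the 7 was 0.00 for HC minus LC, 0.06 for MC minus LC and -0.07 for HC minus MC, beside -0.10, -0.01 and -0.10 over all genes tested. The 95% intervals of the 7 reached at most from -0.97 to 0.44 for HC minus LC, from -0.75 to 0.55 for MC minus LC and from -0.66 to 0.60 for HC minus MC.

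**Figure D3:**
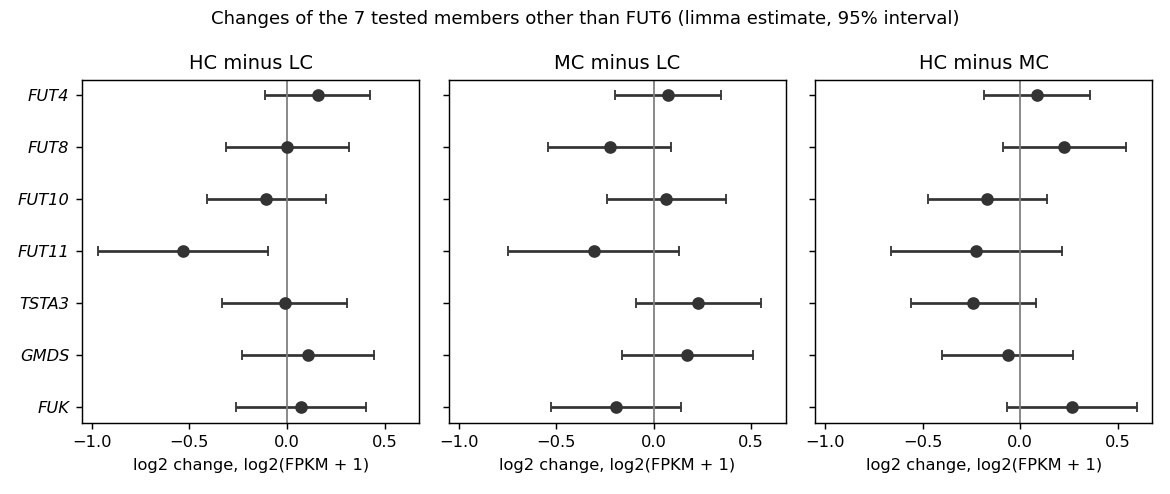
Difference between diets on the log2(FPKM + 1) scale (horizontal axes) for the 7 tested members beside FUT6, with the limma estimate as a point and its 95% interval as a bar. The intervals include 0, save that of FUT11 for HC minus LC, which runs from -0.97 to -0.10.

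The order of the members by level differed between diets mainly in the place of FUT6. In HC it ran FUT6, TSTA3, GMDS, FUT4, FUT8, FUK, FUT10, FUT11, FUT1, where TSTA3 overlapped GMDS and FUT11 overlapped FUT1. In MC it ran TSTA3, GMDS, FUT4, FUT8, FUK, FUT10, FUT6, FUT11, FUT1, where FUK overlapped FUT10 and FUT10 overlapped FUT6. In LC it ran TSTA3, GMDS, FUT4, FUT8, FUT6, FUK, FUT10, FUT11, FUT1, where TSTA3 overlapped GMDS, FUT4 overlapped FUT8, and FUT10, FUT11 and FUT1 overlapped in turn. Over the 9 libraries the highest level was 29.3 times the lowest for FUT6, 6.39 times for FUT1 and 4.87 times for FUT11. It was 1.96 times for FUK and 1.42 to 1.55 times for FUT4, FUT8, FUT10, TSTA3 and GMDS.

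The listed neighbours of FUT6 were read for comparison. NRTN, which encodes the growth factor neurturin, had 5.36, 3.58 and 4.08 FPKM in the HC libraries, 4.25, 3.17 and 3.64 FPKM in the MC libraries and 3.92, 3.69 and 2.60 FPKM in the LC libraries, and its adjusted p was 0.238 or more in each comparison. NDUFA11, a subunit of respiratory complex I, had 353, 466 and 449 FPKM in the HC libraries, 293, 306 and 304 FPKM in the MC libraries and 193, 301 and 273 FPKM in the LC libraries. It was higher in HC than in LC by 0.74 ± 0.19 (log2, SE; adjusted p = 0.0140), and the adjusted p was 0.0800 for HC minus MC. NDUFA11 was lowest in HC1 among the HC libraries, and FUT6 in HC2.

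The supply line has further steps beside GMDS, TSTA3 and FUK. Of 10 tested genes for fucose salvage, for the GDP-fucose carriers and for the mannose steps before GMDS, 2 rose and 2 fell in HC against LC, and 4 rose and 2 fell in MC against LC. In HC against MC 0 rose and 1 fell. Over all genes tested, 7.79% were higher and 17.4% lower in HC minus LC, 16.2% and 17.1% in MC minus LC, and 8.00% and 17.0% in HC minus MC, and these shares are also the background of the lists that follow. The median difference of the 10 was 0.13, 0.02 and -0.08 in this order, beside -0.10, -0.01 and -0.10 over all genes.

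FUOM, the fucose mutarotase that prepares free fucose for FUK, had 115, 165 and 144 FPKM in the HC libraries, 85.9, 95.9 and 117 FPKM in the MC libraries and 49.3, 77.1 and 67.7 FPKM in the LC libraries. It rose in HC against LC by 1.12 ± 0.20 (log2, SE; adjusted p = 0.00197), and this held in all 19 alternatives run. The HC and MC libraries of FUOM overlapped, and its HC minus MC difference of 0.49 had an adjusted p of 0.0862. Its mean was lowest in LC, while that of FUT6 was lowest in MC.

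GMPPB, which makes GDP-mannose, rose in HC and in MC against LC by 0.66 and 0.79 (adjusted p = 0.00416 and 9.18e-04). Its partner GMPPA rose in MC against LC by 0.43 (adjusted p = 0.00811) and the phosphomannomutase PMM1 by 0.50 (adjusted p = 0.0211), which was lost without MC2 and without LC1. FUOM (0.63, adjusted p = 0.0289, lost without MC2, MC3 or LC1) also rose in MC against LC, and GPI, an isomerase of glycolysis, fell by 0.55 (adjusted p = 0.0227, lost without MC1, MC2, LC2 or LC3 and with the smooth muscle covariate). These 2 were named after their values were seen. With LC3 as the only LC library the adjusted p was 0.0592 for GMPPB in HC against LC, 0.0594 for GMPPA and 0.125 for PMM1, and was 0.05 or more for FUOM and GPI in MC against LC. A lone LC library widens the error: over the 24 calls named here that were lost in this way, the SE was 1.14 to 1.55 times as large and the log2 difference 0.552 to 1.33 times, with a median of 0.946 times. Over the 8 named calls lost with the smooth muscle covariate the SE was 1.13 to 1.59 times as large and the log2 difference 0.882 to 1.35 times.

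SLC35C1, the carrier of GDP-fucose into the Golgi, had 3.90, 2.82 and 3.91 FPKM in the HC libraries, 3.65, 2.83 and 4.60 FPKM in the MC libraries and 5.88, 6.45 and 6.28 FPKM in the LC libraries. The LC libraries were above both other diets, which overlapped each other. SLC35C1 fell in HC against LC by 0.67 on the log2 scale (adjusted p = 0.00905) and in MC against LC by 0.64 (adjusted p = 0.00877). With LC3 as the only LC library the differences were -0.69 and -0.65, with an SE of 0.237 in place of 0.156 and an adjusted p of 0.0921 and 0.0819. Under quantile normalization the adjusted p was 0.0593 for HC against LC, with a difference of -0.46.

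FPGT, which turns phosphorylated fucose into GDP-fucose after FUK, had 4.42, 3.04 and 2.82 FPKM in the HC libraries, 5.64, 5.67 and 5.38 FPKM in the MC libraries and 5.33, 5.48 and 5.47 FPKM in the LC libraries. It fell in HC against LC by 0.55 (adjusted p = 0.0127) and in HC against MC by 0.58 (adjusted p = 0.0105), and HC1 was the HC library nearest to the other diets. Without HC3 both calls were lost, with an adjusted p of 0.0640 and 0.0537. The adjusted p against LC was 0.108 under quantile normalization and 0.112 with LC3 as the only LC library, and that against MC was 0.0978 with the smooth muscle covariate, where the difference was -0.61.

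Fucose is also joined directly to proteins such as Notch, and the Fringe enzymes then lengthen it. Of 6 tested genes of this kind, 0 rose and 2 fell in HC against LC, 0 rose and 2 fell in MC against LC, and 0 rose and 1 fell in HC against MC. LFNG, the lunatic Fringe enzyme, had 1.69, 1.54 and 1.18 FPKM in the HC libraries, 2.40, 3.79 and 2.89 FPKM in the MC libraries and 5.37, 6.03 and 5.66 FPKM in the LC libraries. No diets overlapped. LFNG fell by 1.44 in HC against LC (adjusted p = 5.53e-05), by 0.75 in MC against LC (adjusted p = 0.00265) and by 0.70 in HC against MC (adjusted p = 0.00661), the last with a difference of -0.69 and an adjusted p of 0.0832 under the smooth muscle covariate, where the SE was 0.234 in place of 0.149.

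MFNG, the manic Fringe enzyme, averaged 0.683 ± 0.101 FPKM in HC, 0.962 ± 0.426 FPKM in MC and 2.13 ± 0.706 FPKM in LC (SD, n = 3 each). It fell in HC against LC by 0.87 (adjusted p = 0.00905) and in MC against LC by 0.68 (adjusted p = 0.0233). The second call was lost without MC3, LC1 or LC2, and both were lost with LC3 as the only LC library (adjusted p = 0.185 and 0.331). POFUT1, which adds fucose to EGF repeats, averaged 4.03 ± 0.461 FPKM in HC, 4.79 ± 0.0820 FPKM in MC and 4.94 ± 0.146 FPKM in LC, with an adjusted p of 0.135, 0.838 and 0.194 for HC minus LC, MC minus LC and HC minus MC. POFUT2, which acts on thrombospondin repeats, averaged 9.74 ± 0.924 FPKM in HC, 9.42 ± 0.470 FPKM in MC and 11.5 ± 0.356 FPKM in LC, with an adjusted p of 0.148, 0.0791 and 0.808 in the same order.

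Fucose is removed by FUCA1 in lysosomes and by its secreted relative FUCA2. FUCA1 averaged 66.0 ± 5.03 FPKM in HC, 56.9 ± 5.05 FPKM in MC and 53.8 ± 5.11 FPKM in LC, and its adjusted p was 0.123, 0.673 and 0.253. Under median-of-ratios scaling the first of these was 0.0243. FUCA2 had 2.47, 2.34 and 2.75 FPKM in the HC libraries, 1.43, 1.99 and 1.93 FPKM in the MC libraries and 3.33, 4.00 and 4.29 FPKM in the LC libraries. It fell in MC against LC by 0.81 (adjusted p = 9.61e-04), which held under every alternative run. It fell in HC against LC by 0.47 (adjusted p = 0.0275), and that call was lost without HC1, HC2, HC3, LC2 or LC3, under both other scalings and with LC3 as the only LC library. FUCA2 had an adjusted p of 0.0844 for HC minus MC, which was 0.0371 and 0.0317 under median-of-ratios and quantile scaling.

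**Figure D4:**
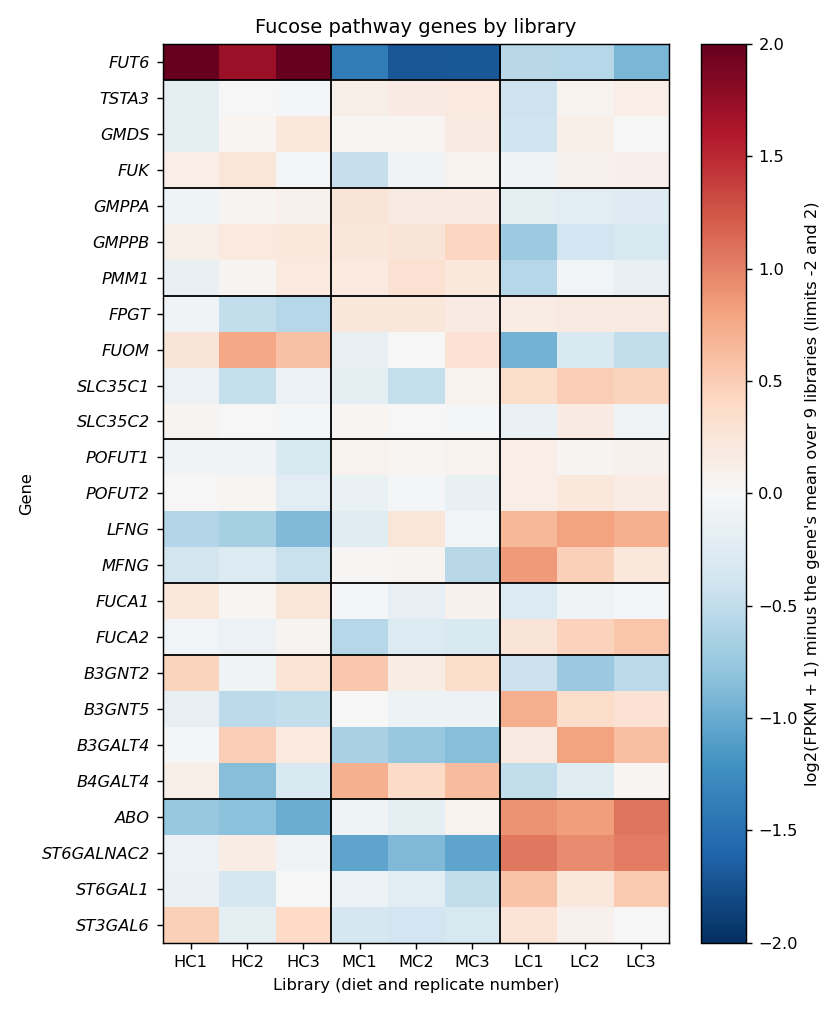
Level of FUT6, the supply genes and the pathway genes of the text in each library, as log2(FPKM + 1) minus the gene's mean over the 9 libraries, with colours limited to -2 and 2. The HC part of the FUT6 row is darkest red, while LFNG, ABO and SLC35C1 are red in the LC libraries and TSTA3, GMDS and FUK stay paler.

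Glycan chains, among them those that FUT6 and FUT4 decorate, are built by other transferases. Of 22 listed genes of chain synthesis 14 were tested. Not all of them build chains that FUT6 and FUT4 use, B3GALT4 being one that does not. In HC against LC 2 rose and 2 fell, in MC against LC 2 rose and 2 fell, and in HC against MC 1 rose and 2 fell. B3GNT2, which extends N-acetyllactosamine chains, averaged 18.4 ± 3.45 FPKM in HC, 20.1 ± 2.93 FPKM in MC and 10.2 ± 1.25 FPKM in LC (SD, n = 3 each). It rose against LC by 0.79 in HC (adjusted p = 0.00431, and 0.0595 with LC3 as the only LC library) and by 0.91 in MC (adjusted p = 0.00117). B3GNT5, which starts the chain on lipids, averaged 0.654 ± 0.240 FPKM in HC, 1.06 ± 0.0887 FPKM in MC and 1.98 ± 0.493 FPKM in LC. It fell against LC by 0.85 in HC (adjusted p = 0.00329) and by 0.52 in MC (adjusted p = 0.0280). The MC call of B3GNT5 was lost without MC1, MC2, MC3 or LC1, and with LC3 as the only LC library the adjusted p was 0.0658 in HC and 0.257 in MC.

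B3GALT4, an enzyme of ganglioside synthesis, averaged 16.8 ± 3.26 FPKM in HC, 8.00 ± 0.596 FPKM in MC and 21.3 ± 4.72 FPKM in LC. It was lower in MC than in LC by 1.29 on the log2 scale (-1.29, adjusted p = 2.21e-04) and higher in HC than in MC by 0.97 (adjusted p = 0.00258, and 0.0587 with the smooth muscle covariate). B4GALT4, a galactosyltransferase, averaged 14.6 ± 5.12 FPKM in HC, 27.6 ± 3.23 FPKM in MC and 15.5 ± 2.98 FPKM in LC. It rose in MC against LC by 0.81 (adjusted p = 0.0173), which was lost without MC1, MC3 or LC1 and with LC3 as the only LC library. B4GALT4 fell in HC against MC by 0.92 (adjusted p = 0.0132, and 0.0532 without MC1).

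The other calls among the chain enzymes were each lost in several alternatives. GCNT2, which branches the chains, rose in HC against LC by 0.50 (adjusted p = 0.0261), and 7 of 19 alternatives lost the call, among them those without HC1, HC3, LC2 or LC3. C1GALT1C1, the chaperone of the enzyme that starts core O-glycans, fell in HC against LC by 0.54 (adjusted p = 0.0394), and 8 of 19 alternatives lost the call, among them both other scalings and those without HC2, HC3, MC2, LC2 or LC3. B4GALT5, a lactosylceramide synthase, fell in HC against MC by 0.56 (adjusted p = 0.0443) although its libraries overlapped, and 11 of 18 alternatives lost the call, among them those without HC2, HC3, MC1, MC2, MC3 or LC2.

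Caps of sialic acid, or of the sugars that ABO adds, share chain ends with fucose, and 9 of 12 listed genes of this kind were tested. ST6GAL1 reached 1 FPKM in the LC libraries alone and so passed the filter on low values only through the diet where it was high. Of the other 8, 0 rose and 2 fell in HC against LC, 1 rose and 3 fell in MC against LC, and 2 rose and 1 fell in HC against MC. ABO, which acts on the H antigen that FUT1 makes, had 6.42, 6.16 and 5.30 FPKM in the HC libraries, 10.8, 9.96 and 12.2 FPKM in the MC libraries and 22.4, 21.4 and 25.5 FPKM in the LC libraries. The 3 diets were fully apart, in the order HC, MC, LC from low to high. ABO fell by 1.79 in HC against LC (adjusted p = 3.78e-06), by 1.01 in MC against LC (adjusted p = 1.14e-04) and by 0.78 in HC against MC (adjusted p = 0.00131). Its adjusted p was 0.00931 or less in every alternative and comparison run. FUT1 and ABO were thus both highest in LC, while FUT6 was highest in HC.

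ST6GALNAC2, which adds sialic acid to O-glycans, had 9.22, 11.3 and 9.61 FPKM in the HC libraries, 4.34, 5.04 and 4.38 FPKM in the MC libraries and 22.2, 20.4 and 21.5 FPKM in the LC libraries. MC was the lowest diet for ST6GALNAC2, as for FUT6, and LC the highest. It fell by 1.02 in HC against LC (adjusted p = 1.05e-04) and by 2.01 in MC against LC (adjusted p = 7.75e-07), and rose by 0.98 in HC against MC (adjusted p = 2.50e-04). All 3 calls held in every alternative run.

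ST6GAL1, which caps N-glycans with sialic acid, averaged 0.722 ± 0.199 FPKM in HC, 0.585 ± 0.206 FPKM in MC and 1.59 ± 0.331 FPKM in LC. Because of the filter its differences from LC are given as levels and without a test. ST3GAL2 fell in MC against LC by 0.48 (adjusted p = 0.0291), lost in 5 of 19 alternatives, which are those without MC1, MC3, LC1 or LC2 and with LC3 as the only LC library. ST3GAL1, named after its value was seen, rose in MC against LC by 0.44 (adjusted p = 0.0472), lost without HC3, MC1, MC3, LC1 or LC3 and in 4 other settings. ST3GAL6, which can prepare the sialyl Lewis X chain for a FUT enzyme, averaged 3.14 ± 0.959 FPKM in HC, 1.72 ± 0.0470 FPKM in MC and 2.77 ± 0.356 FPKM in LC. It rose in HC against MC by 0.58 (adjusted p = 0.0301), lost without HC1, HC3, MC1, MC2 or MC3 and with the smooth muscle covariate.

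Enzymes that trim and branch N-glycans act ahead of FUT8. Of 9 tested genes 0 rose and 1 fell in HC against LC, 1 rose and 1 fell in MC against LC, and 0 rose and 1 fell in HC against MC. MAN1A1, a trimming mannosidase, averaged 1.53 ± 0.373 FPKM in HC, 0.996 ± 0.236 FPKM in MC and 3.23 ± 0.757 FPKM in LC. It fell against LC by 0.74 in HC (adjusted p = 0.00885, and 0.0737 with LC3 as the only LC library) and by 1.07 in MC (adjusted p = 6.67e-04). MGAT2, a branching enzyme, averaged 6.59 ± 0.907 FPKM in HC, 11.8 ± 0.964 FPKM in MC and 7.97 ± 0.175 FPKM in LC. It rose in MC against LC by 0.51 (adjusted p = 0.00643, and 0.0830 with LC3 as the only LC library) and fell in HC against MC by 0.76 (adjusted p = 0.00134).

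Mucins and galectins carry or bind such glycans. Of 11 mucin, membrane glycoprotein and galectin genes looked for, 6 were listed and 3 tested, and 1 rose and 1 fell in HC against LC, 1 rose and 0 fell in MC against LC, and 0 changed in HC against MC. LGALS7, a galectin of stratified epithelia, averaged 397 ± 19.3 FPKM in HC, 383 ± 48.9 FPKM in MC and 222 ± 49.5 FPKM in LC. It rose against LC by 0.86 in HC (adjusted p = 0.00612) and by 0.80 in MC (adjusted p = 0.00622). LGALS3 averaged 82.9 ± 19.3 FPKM in HC, 89.1 ± 8.41 FPKM in MC and 123 ± 11.2 FPKM in LC, and its fall of HC against LC by 0.58 (adjusted p = 0.0323) was lost in 6 of 19 alternatives, among them those without HC2, LC2 or LC3. Of 6 selectin and selectin ligand genes 2 were tested, and GLG1, a ligand of E-selectin, fell in MC against LC by 0.83 (adjusted p = 0.00912, and 0.106 with LC3 as the only LC library), while 0 changed in HC against LC or MC.

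In the mouse intestine, IL22 and lymphotoxin signals raise Fut2, a gene not listed under that name in these libraries. Of 11 genes of these signals 6 were tested. In HC against LC 0 rose and 1 fell, in MC against LC 1 rose and 2 fell, and in HC against MC 0 rose and 2 fell. LTBR, the lymphotoxin receptor, averaged 21.8 ± 2.26 FPKM in HC, 31.2 ± 4.43 FPKM in MC and 48.2 ± 6.12 FPKM in LC. It fell by 1.11 in HC against LC (adjusted p = 3.57e-04), by 0.61 in MC against LC (adjusted p = 0.00779) and by 0.49 in HC against MC (adjusted p = 0.0307), the last lost in 7 of 18 alternatives, among them those without HC1, HC2, HC3, MC2 or MC3. RELB, a transcription factor of that signal, averaged 2.02 ± 0.131 FPKM in HC, 3.91 ± 0.557 FPKM in MC and 2.11 ± 0.205 FPKM in LC. It rose in MC against LC by 0.65 (adjusted p = 0.00245, and 0.0585 with LC3 as the only LC library) and fell in HC against MC by 0.70 (adjusted p = 0.00317). STAT3, which carries the IL22 signal, averaged 48.9 ± 6.91 FPKM in HC, 38.6 ± 3.85 FPKM in MC and 62.6 ± 2.86 FPKM in LC, and fell in MC against LC by 0.69 (adjusted p = 0.00264). IL22 itself was listed in LC2 alone, at 0.178 FPKM. Of 6 HNF and CDX factors, which drive human FUT6 and related genes in liver and gut, 4 were listed, and their levels summed to 0.132 to 0.245 FPKM in HC, 0.0182 to 0.0601 FPKM in MC and 0.0170 to 0.127 FPKM in LC.

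Some markers of other cell types also differed between the diets. Of 16 tested leukocyte markers, 5 (PTPRC, CD3E, CD3D, ITGB2 and CD207) reached 1 FPKM in the LC libraries alone and passed the filter only through them. Of the other 11, 0 rose and 6 fell in HC against LC, 0 rose and 9 fell in MC against LC, and 4 rose and 2 fell in HC against MC. Endothelial markers summed to 8.05 to 19.4 FPKM in HC, 13.2 to 33.5 FPKM in MC and 17.4 to 51.6 FPKM in LC, and fibroblast markers to 123 to 269 FPKM, 120 to 276 FPKM and 207 to 514 FPKM in the same diets. Of 7 endothelial and of 7 fibroblast markers, 1 each (VWF and PDGFRB) fell in HC and in MC against LC, and 0 changed in HC against MC. Of the 10 smooth muscle markers 0 passed the test in HC or in MC against LC, and 2 (DES and SMTN) fell in HC against MC. ACTA2 differed from their summed level, with means of 28.7 FPKM in HC, 25.4 FPKM in MC and 17.3 FPKM in LC. Neutrophil markers summed to 5.87 to 6.46 FPKM in HC, 5.96 to 7.88 FPKM in MC and 3.00 to 4.70 FPKM in LC. In HC and MC most of this was MMP9, a matrix protease, while in each LC library CXCR2 was above MMP9. MMP9 averaged 4.61 ± 0.603 FPKM in HC, 4.93 ± 0.709 FPKM in MC and 1.38 ± 0.553 FPKM in LC. It rose against LC in HC and in MC (adjusted p = 5.23e-04 and 2.15e-04). CXCR2, the other neutrophil marker tested, averaged 1.16 ± 0.191 FPKM in HC, 1.67 ± 0.413 FPKM in MC and 1.90 ± 0.148 FPKM in LC, with an adjusted p of 0.0580 or more in each comparison. Basal epithelial markers summed to 4302 to 6465 FPKM in HC, 5043 to 5808 FPKM in MC and 3969 to 6102 FPKM in LC, and differentiated ones to 1785 to 2364 FPKM, 2242 to 3039 FPKM and 1935 to 2779 FPKM. KRT5 made up most of the basal sum. Of 6 tested basal markers, 0 rose and 1 (ITGA6) fell in HC against LC, and 0 rose and 1 (COL17A1) fell in MC against LC. In HC against MC 1 (TP63) rose and 1 (ITGA6) fell.

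Of 10 tested markers of differentiated epithelium, 1 rose (KRT80) and 4 fell (KRT4, TGM3, DSG3 and EVPL) in HC against LC, 2 rose and 3 fell in MC against LC, and 2 rose and 3 fell in HC against MC. KRT4, a keratin of wet stratified epithelia, averaged 21.1 ± 7.09 FPKM in HC, 2.03 ± 0.331 FPKM in MC and 53.8 ± 19.9 FPKM in LC, and differed in all 3 comparisons (adjusted p = 0.0126, 1.51e-05 and 3.17e-04 for HC minus LC, MC minus LC and HC minus MC). KRT80, another keratin, averaged 95.9 ± 26.2 FPKM in HC, 87.1 ± 11.4 FPKM in MC and 35.7 ± 2.60 FPKM in LC. These genes were named after their values were seen. The leukocyte sum and KRT4 were, like FUT6, lowest in MC, and unlike FUT6 they were higher in LC than in HC. The part of cell makeup and epithelial state in the levels of FUT6, LFNG, MFNG, ABO, SLC35C1 and the others was not tested.

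The 10 tested genes whose profile was most like that of FUT6, by Pearson r of log2(FPKM + 1) over the 9 libraries, were TMEM86A (0.992), MMRN1 (0.978), ADAM28 (0.975), CYR61 (0.973), FBN2 (0.969), SCPEP1 (0.968), POLI (0.966), LOC102186409 (0.964), LOC102186952 (0.961) and SLC22A3 (0.960). The libraries share their diets, so any gene high in HC scores well, and these values are a description without a test. MMRN1, ADAM28, FBN2 and SLC22A3 reached 1 FPKM in the HC libraries alone, and so passed the filter on low values only through that diet. Their MC and LC levels were all under 1 FPKM. Of 11667 genes 61 had an r of 0.9 or more, and the median r was -0.22. TMEM86A, an enzyme of plasmalogen breakdown, had 17.6, 12.1 and 20.7 FPKM in the HC libraries, 3.62, 2.50 and 3.37 FPKM in the MC libraries and 5.50, 5.48 and 4.33 FPKM in the LC libraries. It shared with FUT6 the low HC2 value and the order HC, LC, MC from high to low. Of the 10 genes 6 had their lowest HC value in HC2, and 9 had that order of means. The genes were picked for likeness to FUT6 over these same libraries, so the pick favours such shared features. For LOC102186409, 1 of the 6, the HC values hardly differed, at 71.3, 70.6 and 73.4 FPKM.

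CYR61, a secreted matrix protein, averaged 38.5 ± 8.21 FPKM in HC, 2.50 ± 1.5 FPKM in MC and 5.08 ± 1.5 FPKM in LC, close to the FUT6 levels. SCPEP1, a lysosomal carboxypeptidase, was high in all diets, at 66.1 ± 6.59 FPKM in HC, 30.9 ± 2.74 FPKM in MC and 39.3 ± 2.89 FPKM in LC. The other members stood further from FUT6. Their r was 0.478 for FUT8, 0.423 for FUK, 0.386 for FUT4, -0.065 for GMDS, -0.47 for FUT11, -0.48 for TSTA3 and -0.51 for FUT10.

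**Figure D5:**
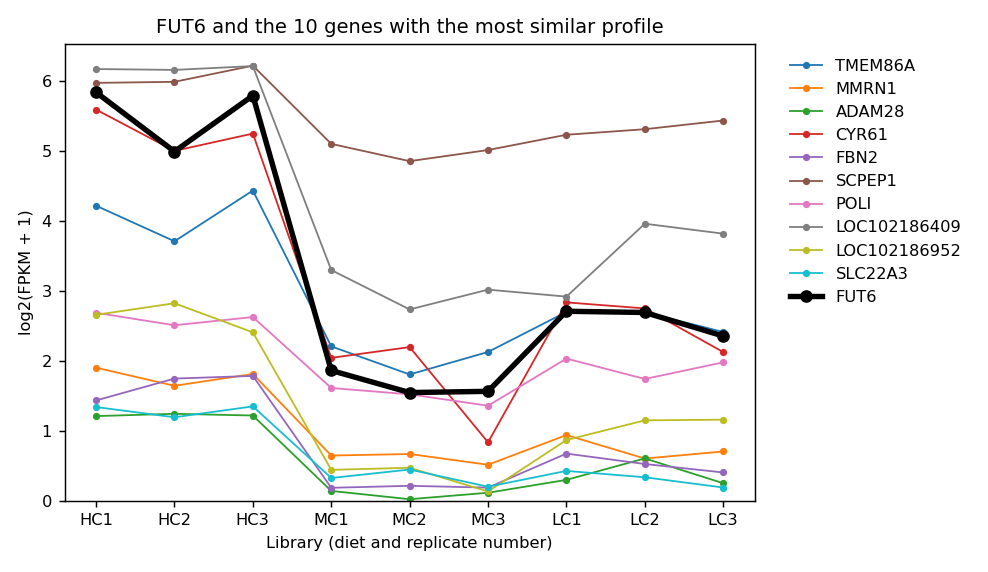
Level on the log2(FPKM + 1) scale (vertical axis) of FUT6, drawn in black, and of the 10 genes with the most similar profile, by library (horizontal axis). All are highest in the HC libraries, where FUT6 was at 30.9 FPKM or more.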

How the data were processed

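Per the submitters' processing notes, the authors used Bowtie 1.2.0 and Cufflinks 2.2.1 and deposited 1 FPKM value per gene and library. The labels do not name the unit; it follows from Cufflinks and from the range of the values. Build, strand, filters and depth were not given in the sources used here. Whole reads could not be recovered. File starts were taken to count from 0, and 1 was added to each start. End minus start equals the table length for 5 of 9 mitochondrial genes and not for the others, so the printed starts rest on this assumption. Names were matched to the RefSeq table of ARS1.2 (16854 of 18383). Repeated lines of TPT1 and CD81 were summed, and 18 to 21 lines with names turned into dates in the MC and LC files (0 in HC) were left out. FPKM summed to 755624 in LC1 and 903006 to 1051183 in the other libraries, with 15123 to 16696 genes listed.

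Tested were the 11668 genes listed in all 9 libraries among the 11879 that reached 1 FPKM in 3 or more, on log2(FPKM + 1), which understates changes of low genes. The fit was limma 3.58.1 in R 4.3.3, with a mean per diet over all 9 libraries, trend and robust moderation, two-sided, 6 residual and a median of 5.77 prior degrees of freedom, and Benjamini-Hochberg adjustment per comparison at 0.05. It was checked on simulated data, and the depth that limits its precision is unknown. Alternatives changed pseudocount, filter, scaling, moderation, libraries and pairing. An LC group of LC3 alone and a smooth muscle covariate were added after the data were seen.

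The members, lists and alternatives were chosen with earlier results of these data known. Named are all members, up to 4 genes per list and comparison by adjusted p among those past the test, SLC35C1, FPGT, POFUT1, POFUT2, FUCA1 and FUCA2, and the 10 genes most like FUT6. FUT6's neighbours were added after their values were seen. No sequence is shown. Tables and figures were made with Python 3.11.15, pandas 2.3.3, numpy 2.4.6 and matplotlib 3.10.9.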

Additional observations from a re-analysis of the deposited data

How the results depend on the processing

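The 0 of 7 members called in HC minus LC became 1 with the replicate block (FUT11, adjusted p = 0.0399). It ran from 0 to 1 when each library was left out. In MC minus LC and in HC minus MC it stayed 0 of 7 in all alternatives. Dropping the filter on low values added FUT1 to the members tested. FUT1 was then called lower in HC minus LC and in MC minus LC, and not called in HC minus MC. In that setting 3307 and 4179 genes in all were called in HC minus LC and MC minus LC. Whether the replicate numbers pair the libraries is not known. The correlation of same-numbered deviations was 0.290, 0.197 and 0.067 (HC and LC), 0.384, 0.079 and 0.504 (MC and LC) and 0.450, -0.076 and 0.209 (HC and MC). For different numbers it ran from -0.49 to 0.31. Deviations are taken from the diet mean, so these values depend on each other and do not settle the question. The block moved the count of all genes called to 3751, 4613 and 3871 for HC minus LC, MC minus LC and HC minus MC, beside 2939, 3894 and 2917 without it, which is under 1.5 times.

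The FUT6 difference kept its sign throughout. FUT6 was chosen for its level and the libraries of its diets did not overlap, so leaving out 1 library could not turn the sign. These values describe only the size of the difference. With a pseudocount of 0.1 it was 4.34 for HC minus MC, and without 1 library it ran from 2.81 to 3.23, from -1.04 to -0.87 and from 3.74 to 4.16 for HC minus LC, MC minus LC and HC minus MC. Genes called ran from 1769 to 2811, from 2838 to 4043 and from 1619 to 4066 without 1 library. The count was more than 1.5 times smaller without HC3 (1769) for HC minus LC, and without HC2 (1801), HC3 (1619), MC1 (1676) or MC2 (1703) for HC minus MC. With LC3 as the only LC library, assumed to vary like the other diets, 1379 and 2322 genes were called in HC minus LC and MC minus LC, and with the smooth muscle covariate 1076 in HC minus MC.

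Median-of-ratios and quantile scaling moved the median of all genes in the HC comparisons by 0.10 to 0.12, and the calls of HC minus LC then split 1494 higher and 1329 lower, and 1484 and 1157, beside 909 and 2030. For HC minus MC they split 1513 and 1319, and 1553 and 1296, beside 933 and 1984.

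Of 52 named calls of pathway genes, 21 held in every alternative, and 31 were lost in at least 1, of which 10 with LC3 alone for LC as the only loss and 2 with the covariate as the only loss. The cause was not tested. Signs turned for values near 0 that passed no test. For HC minus LC, FUT8 was -0.0006 with pseudocount 0.1, -0.0783 with the covariate, -0.0897 with LC3 alone and -0.0873 to 0.1589 without 1 library, FUT10 was 0.16 and TSTA3 0.013 under quantile scaling, TSTA3 was 0.11 under median-of-ratios and -0.18 to 0.0887 without 1 library, GMDS ran from -0.0433 to 0.2153 and FUK was -0.0116 with the covariate. For MC minus LC, FUT4 ran from -0.0085 to 0.15 and FUT10 from -0.0269 to 0.1679 without 1 library, POFUT1 was 0.0344 under quantile scaling and FUCA1 -0.0263 with LC3 alone. For HC minus MC, FUT10 was 0.0019 under quantile scaling, GMDS 0.0503 and 0.019 under the 2 scalings and -0.1619 to 0.0419 without 1 library, SLC35C1 0.0555 and 0.1288 under the 2 scalings and -0.1775 to 0.0976 without 1 library, POFUT2 -0.0064 to 0.11 without 1 library, and FUT4 -0.0083 with the covariate.

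FPKM keep no read number, so the counting error of the low members FUT1 and FUT11 could not be given.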
